A study of Mus musculus with 12 samples.

Results

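The genes of bile acid synthesis and transport were examined in the liver transcriptome of IDH2 KO mice. They were 10 of the 36228 rows of the deposited count table, taken by gene symbol with no cutoff on their values, though earlier results of these data were known: *Cyp7a1*, *Cyp8b1*, *Cyp27a1*, *Cyp7b1*, *Slc27a5*, *Baat*, *Slc10a1*, *Abcb11*, *Nr0b2* and *Nr1h4*. Liver RNA came from 12 mice of the C57BL/6N strain aged 8 to 10 weeks, and each mouse gave 1 library. The WT group held 4 females and 3 males that carry both *Idh2* alleles, and the IDH2 KO group held 3 females and 2 males that lack *Idh2* in the germ line and therefore in every cell, not in hepatocytes alone. WT mice were littermates of the IDH2 KO mice, and no group received a treatment. IDH2 is the mitochondrial NADP-dependent isocitrate dehydrogenase, an enzyme that supplies NADPH to mitochondria. The comparison asks whether the genes of a cholesterol-consuming pathway of the liver differ with the loss of this enzyme.

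Bile acids are made from cholesterol in hepatocytes. In the classic pathway CYP7A1 starts the conversion at the sterol ring, while in the alternative pathway the mitochondrial enzyme CYP27A1 first oxidizes the side chain and CYP7B1 then acts on the ring. CYP8B1 adds the hydroxyl group that leads to cholic acid. The bile acid-CoA ligase encoded by *Slc27a5* activates bile acids and BAAT joins them to taurine or glycine, after which the export pump BSEP (*Abcb11*) moves them into bile and the uptake carrier NTCP (*Slc10a1*) returns them from portal blood. The nuclear receptor FXR (*Nr1h4*) senses bile acids and raises SHP (*Nr0b2*), a repressor that lowers *Cyp7a1* and *Cyp8b1*, and LRH-1 (*Nr5a2*) and HNF4A are activators of these genes.

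Promoter sequence of RefSeq (GRCm38.p6) was at hand for 6 of the 10 genes. The 250 bases before the start site are shown for 3 of them, namely *Cyp8b1* and *Nr0b2*, which hold motifs of the pathway's regulators, and *Cyp27a1*, which had the largest difference between the genotypes among the 4 enzymes of the 10 genes that were counted. Capitals mark the matches to 3 motifs searched on both strands: the HNF4A motif CAAAGTCCA, the core TCAAGG bound by LRH-1 and the TATA box TATAAA. No match overlapped another. *Cyp8b1* is shown at chr9:121916306-121916555 (minus strand), *Nr0b2* at chr4:133553126-133553375 (plus strand) and *Cyp27a1* at chr1:74713285-74713534 (plus strand), each written 5′ to 3′.
Cyp8b1: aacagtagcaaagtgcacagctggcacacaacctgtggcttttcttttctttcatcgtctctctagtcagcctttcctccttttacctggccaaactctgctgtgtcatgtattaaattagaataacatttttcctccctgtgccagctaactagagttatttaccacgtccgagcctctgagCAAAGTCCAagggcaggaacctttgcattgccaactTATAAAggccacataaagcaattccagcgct
Nr0b2: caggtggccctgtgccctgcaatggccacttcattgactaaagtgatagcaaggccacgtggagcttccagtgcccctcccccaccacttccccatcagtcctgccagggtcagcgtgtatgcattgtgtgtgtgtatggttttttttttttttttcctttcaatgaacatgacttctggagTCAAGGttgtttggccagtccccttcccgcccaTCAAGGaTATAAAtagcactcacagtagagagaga
Cyp27a1: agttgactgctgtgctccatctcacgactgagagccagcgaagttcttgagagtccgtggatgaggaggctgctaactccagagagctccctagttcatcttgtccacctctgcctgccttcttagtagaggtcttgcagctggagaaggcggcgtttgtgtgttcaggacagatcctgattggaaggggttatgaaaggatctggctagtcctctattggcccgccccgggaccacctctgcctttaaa
The HNF4A motif begins 67 bases before the start of *Cyp8b1* and was found in 0.384% of all 32851 promoter windows of this length. The LRH-1 core occurs 2 times in *Nr0b2*, beginning 68 and 35 bases before the start, and in 12.5% of all windows. A TATA box lies in both genes and in 12.4% of all windows. None of the 3 motifs is in the window of *Cyp27a1*, which says only that these letters are not there.

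The libraries held 15323300 to 25019649 reads counted in genes. The WT libraries held 967 to 2363 reads of *Idh2* and the IDH2 KO libraries 1 to 7 (log2 fold change −9.12, standard error 0.50, adjusted p = 9.58e-08). Of 6 hepatocyte markers, 5 were counted in every library, including *Alb* at 6.66% to 21.3% of reads, while *Cps1*, an abundant urea cycle gene of hepatocytes, was listed at 0 in all 12. Accordingly, a low count in this table is given below as listed and not as an absence of the transcript. One library, IDH2 KO female 3, stood apart, in that only 8531 genes had a read, compared with 10482 to 12873 elsewhere, and its median correlation with the remaining libraries was 0.865 against 0.944 to 0.963. WT male 1 held intestinal transcripts, with 1219 reads of the villus gene *Vil1* against 0 to 5 in the other libraries and 1182 of *Lct* against 0 to 4. The other 2 of 4 enterocyte markers did not stand apart there, with 1471 reads of *Fabp2* against 469 to 1690 and 37 of *Slc10a2* against 0 to 510. Of 6 cholangiocyte markers, *Epcam* and *Krt19* were also high in this library, at 862 reads against 0 to 17 and 174 against 1 to 18. *Cftr* held 10 reads there against 0. *Krt7*, at 12 against 2 to 53, and *Sox9*, at 40 against 5 to 58, did not stand apart, and *Spp1* was listed at 0. In IDH2 KO female 3 the summed level of 6 periportal markers was 2469 RPM (reads relative to library size), against 3964 to 7208 in WT libraries, and that of 6 pericentral markers was 10656, against 13293 to 19451. The sum of the 6 hepatocyte markers in that library was 188950 RPM, within the 117300 to 250670 of WT libraries. Some results that rest on these libraries are given with and without them. Others are given only with them, such as those of *Slc10a2* in females and of *Cyp2a12* within each sex. The part of these libraries in the results was otherwise not tested.

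The 10 genes fell into 5 that were counted well and 5 that were close to 0 in every library. The well counted genes were *Slc27a5*, *Cyp8b1*, *Cyp27a1*, *Baat* and *Nr0b2*, with 7265 to 266227 reads over the 12 libraries. The other 5 held 0 to 29 reads over the same 241346756 reads and were removed by the low-count filter, so that no test was run on them. Each counted gene held at least 236 reads in every library, and each of the other 5 held at most 14.

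**Figure D1:**
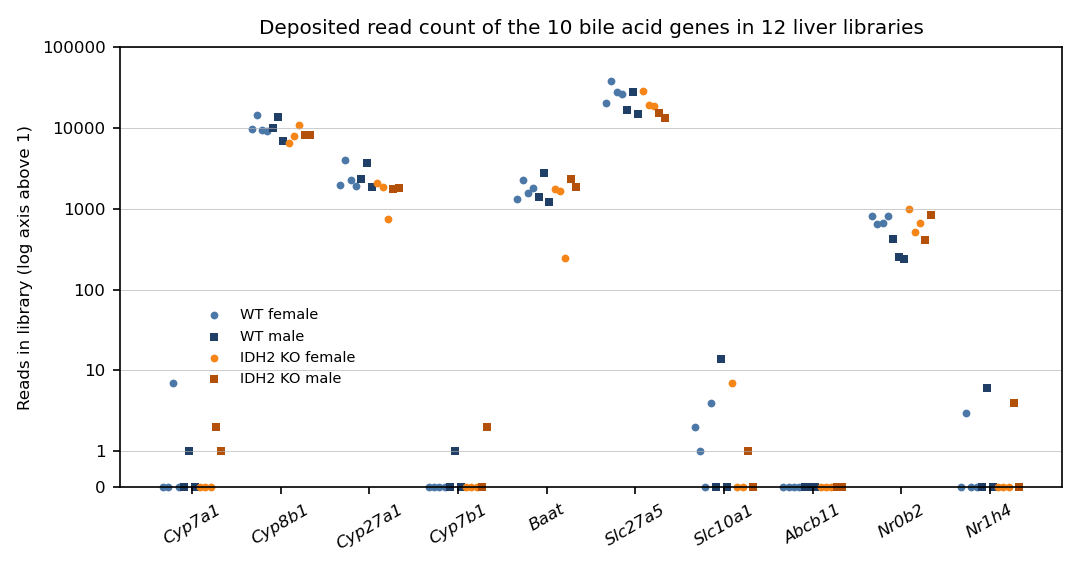
Deposited reads of each of the 10 genes (x axis) in each of the 12 libraries (points, y axis on a log scale above 1, with 0 at the base), coloured by genotype and sex. *Cyp8b1*, *Cyp27a1*, *Baat*, *Slc27a5* and *Nr0b2* lie at 236 to 38073 reads per library, and the other 5 genes lie at 0 to 14.

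*Cyp7a1*, the first enzyme of the classic pathway (chromosome 4, 6265612 to 6275633, minus strand, GRCm38), had 11 reads in all. WT female 3 held 7 of them, WT male 2 held 1, IDH2 KO male 1 held 2 and IDH2 KO male 2 held 1. The other 8 libraries held none. *Cyp7b1*, the ring hydroxylase of the alternative pathway (chromosome 3, 18071950 to 18243338, minus strand), had 3 reads, 1 in WT male 2 and 2 in IDH2 KO male 2. The reads of both genes were thus spread over WT and IDH2 KO libraries, and no female IDH2 KO library held a read of either.

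*Slc10a1*, the uptake carrier (chromosome 12, 80953183 to 80968705, minus strand), had 29 reads, of which WT male 2 held 14, IDH2 KO female 1 held 7, WT female 4 held 4, WT female 1 held 2, and WT female 2 and IDH2 KO male 1 held 1 each. *Abcb11*, the export pump (chromosome 2, 69238282 to 69342616, minus strand), was listed at 0 in all 12 libraries. A count of 0 among all reads allows a level of up to 0.0124 RPM, for counting error only. *Nr1h4*, the bile acid receptor (chromosome 10, 89454234 to 89533585, minus strand), had 13 reads, 3 in WT female 2, 6 in WT male 2 and 4 in IDH2 KO male 1. WT male 2 held at least 1 read of 4 of these 5 genes, more of them than any other library.

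The reads of these 5 genes were too few for a test between the genotypes. Over all libraries *Cyp7a1* stood at 0.0456 RPM (95% exact Poisson interval 0.0228 to 0.0816), *Slc10a1* at 0.120 (0.0805 to 0.173) and *Nr1h4* at 0.0539 (0.0287 to 0.0921), and the intervals cover counting error only.

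The counted genes differed widely in level. Per kilobase of exon, the WT level was 473 ± 67.2 (SD, n = 7) CPM (counts relative to library size after TMM scaling) for *Slc27a5*, 255 ± 27.8 for *Cyp8b1*, 55.7 ± 9.92 for *Cyp27a1*, 42.9 ± 7.005 for *Baat* and 23.5 ± 10.1 for *Nr0b2*. Within a library this order does not depend on the scaling. *Slc27a5* was above *Cyp8b1* and *Cyp8b1* above *Cyp27a1* in all 12 libraries, while *Cyp27a1* was above *Baat* in 8 of 12 and *Baat* above *Nr0b2* in 10 of 12. The ranges of *Cyp27a1* and *Baat* over the WT libraries overlapped, at 41.3 to 67.6 and 34.7 to 57.4 CPM per kilobase, as did *Baat* and *Nr0b2*, the latter at 9.11 to 36.5.

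None of the 5 counted genes passed the test for a difference between IDH2 KO and WT livers. With sex as a covariate, 29 of 7618 genes tested, or 0.381%, were called at an adjusted p under 0.05 (quasi-likelihood test of edgeR, Benjamini-Hochberg adjustment), and the count among the bile acid genes was 0 of 5. At an unadjusted p under 0.05 the count was 1 of 5, *Cyp27a1*, against 6.72% of all genes. The median log2 fold change of the 5 genes was −0.13, and that of all genes tested was −0.0045. The 4 synthesis and conjugation genes had negative fold changes and *Nr0b2* a positive one, while 50.5% of all genes tested were negative. In bulk liver RNA, fewer cells of a type and less RNA per cell cannot be told apart.

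**Figure D2:**
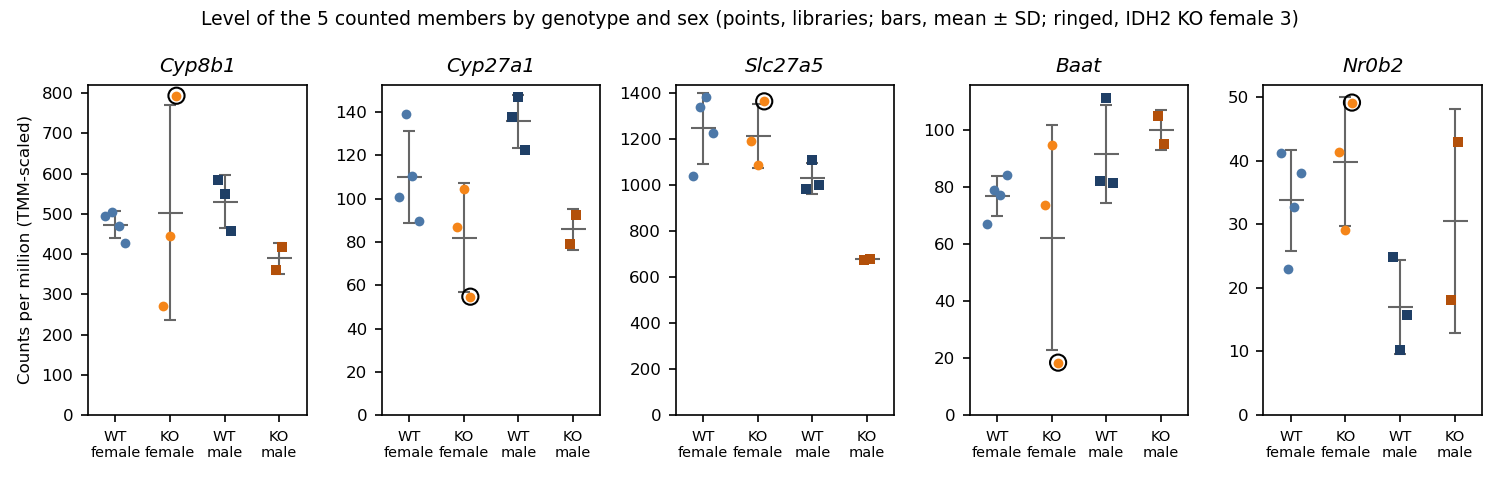
Level of the 5 counted genes in CPM (y axes, from 0) by genotype and sex (x axes). Points are libraries, bars give the mean and SD, and IDH2 KO female 3 is ringed. In *Slc27a5* both IDH2 KO males lie at 673 to 679 CPM, below the WT males at 981 to 1107, a separation that is lost in RPM without TMM scaling (817 and 856 against 808 to 1538), and in *Baat* the ringed library lies at 18.4 CPM, below all other libraries.

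*Cyp27a1* (chromosome 1, 74713574 to 74737892, plus strand) encodes the sterol 27-hydroxylase that opens the alternative pathway and also oxidizes the side chain in the classic one. It had the largest difference among the 4 counted enzymes of the 10 genes, and it did not pass the test. Its level in WT females was 101, 139, 111 and 89.8 CPM and in WT males 138, 147 and 122 CPM. The IDH2 KO females were at 86.7, 105 and 54.7 CPM and the IDH2 KO males at 79.1 and 92.6 CPM. After TMM scaling the male groups did not overlap, and 4 of 5 IDH2 KO libraries were lower than all WT libraries of the same sex. In males 11.9% of all genes tested were separated in this direction, and the count over both sexes was not made for all genes. In RPM, without that scaling, the groups overlapped in both sexes and 2 of 5 IDH2 KO libraries were lower, namely IDH2 KO female 3 at 45.7 RPM and IDH2 KO male 1 at 96.0 RPM. It averaged 121 CPM in WT (SD 21.6, n = 7) against 83.5 CPM in IDH2 KO mice (SD 18.6, n = 5), and the log2 fold change was −0.52 (95% confidence interval −0.94 to −0.10, unadjusted p = 0.0188, adjusted p = 0.605 from edgeR). Without IDH2 KO female 3 it was −0.40 (adjusted p = 0.419). It was −0.43 in females, or −0.19 without IDH2 KO female 3 (adjusted p = 0.894), and −0.66 in males, and the difference between the sexes had an interval of −1.11 to 0.64.

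*Cyp8b1*, the sterol 12α-hydroxylase that sets the share of cholic acid (chromosome 9, 121914356 to 121916305, minus strand), lay on both sides of the WT range in the IDH2 KO libraries. Its level was 495, 503, 469 and 427 CPM in WT females and 584, 549 and 457 CPM in WT males. IDH2 KO females were at 269.7, 446 and 793 CPM and IDH2 KO males at 361 and 417 CPM. The lowest and the highest of all 12 libraries in CPM were thus both IDH2 KO females, whereas both IDH2 KO males were below the 3 WT males. In RPM the lowest was still IDH2 KO female 1, at 259 RPM, but the highest was WT male 2, at 762 against 662 RPM in IDH2 KO female 3, and the male groups overlapped. The SD was 54.1 CPM in WT and 199 CPM in IDH2 KO mice, around means of 497 and 457 CPM. The log2 fold change was −0.13 (95% confidence interval −0.63 to 0.38, adjusted p = 0.947 from edgeR). It was −0.41 without IDH2 KO female 3 (unadjusted p = 0.0171, adjusted p = 0.395) and 0.0076 without IDH2 KO female 1.

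The sign of the *Cyp8b1* difference in females rested on 1 library. With all 3 IDH2 KO females the log2 fold change in females was 0.09 (adjusted p = 0.974), and without IDH2 KO female 3 it was −0.39 (adjusted p = 0.784). In males it was −0.45 (95% confidence interval −1.23 to 0.34, adjusted p = 1), or −0.24 without scaling. The genes whose profile over the 12 libraries lay nearest to that of *Cyp8b1* were *Cct7*, *Erp29* and *Taldo1*, with a root mean square difference of 0.15 to 0.18 on the log2 scale after centring, and all 3 were highest in IDH2 KO female 3.

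*Slc27a5*, the ligase that activates bile acids for conjugation (chromosome 7, 12988346 to 12998192, minus strand), was the most even of the 5 counted genes. The residual SD of its log2 level within the groups was 0.15 in CPM, and 99.2% of the genes tested had a larger one. In RPM the SD was 0.35, the smallest of the 5, and 85.2% of genes had a larger one. With sex as a covariate its log2 fold change was −0.27 (95% confidence interval −0.64 to 0.11, unadjusted p = 0.148, adjusted p = 0.808 from edgeR). Its level was 1039, 1338, 1384 and 1225 CPM in WT females and 1192, 1085 and 1363 CPM in IDH2 KO females, which overlapped. WT males were at 981, 1107 and 1000.4 CPM and IDH2 KO males at 673 and 679 CPM, without overlap. In RPM the males overlapped, with 972, 1538 and 808 RPM in WT and 817 and 856 RPM in IDH2 KO mice. In males the log2 fold change was −0.61 (95% confidence interval −1.16 to −0.06, unadjusted p = 0.0329, adjusted p = 1 from edgeR), where 0.105% of genes were called. Without scaling the male value was −0.40 (unadjusted p = 0.291), and with limma after adding 1 it was −0.35 (unadjusted p = 0.354). In females it was −0.04 (−0.49 to 0.41, adjusted p = 0.983). The interaction of genotype with sex was −0.57 (−1.27 to 0.14, unadjusted p = 0.107, adjusted p = 1.00), so a difference between the sexes in the effect of IDH2 was not established.

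*Baat*, the conjugating acyltransferase (chromosome 4, 49489422 to 49506557, minus strand), showed the widest spread of the 4 counted enzymes of the 10 genes. Its level was 67.3, 79.1, 77.5 and 84.3 CPM in WT females and 82.1, 112 and 81.5 CPM in WT males. IDH2 KO females were at 73.7, 94.9 and 18.4 CPM and IDH2 KO males at 105 and 95.3 CPM. The groups overlapped in both sexes, and IDH2 KO female 3, with 249 reads against 1222 to 2769 in the other libraries, lay apart from all. The mean in IDH2 KO mice was 77.5 ± 35.0 (SD, n = 5) CPM with this library and 92.3 ± 13.2 (SD, n = 4) without it, against 83.3 ± 13.6 (SD, n = 7) in WT mice. The log2 fold change changed sign with it, from −0.12 (adjusted p = 0.957 from edgeR) to 0.14 (adjusted p = 0.785). A long noncoding gene, *Gm32894*, overlaps *Baat* in RefSeq, and since the strand handling of the counting is not given in the sources used here, reads of the pair may not be separated.

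*Nr0b2*, which encodes the repressor SHP (chromosome 4, 133553376 to 133556536, plus strand), was the one counted gene with a higher mean in IDH2 KO mice. Its level was 41.3, 23.1, 32.8 and 38.0 CPM in WT females and 24.9, 10.3 and 15.7 CPM in WT males. IDH2 KO females were at 41.4, 29.1 and 49.2 CPM and IDH2 KO males at 18.1 and 43.0 CPM. The genotypes overlapped in both sexes, and 3 of 5 IDH2 KO libraries lay above all WT libraries of the same sex. IDH2 KO female 1 did so narrowly, at 41.4 CPM against 41.3 CPM in WT female 1, and this count was not made for all genes. The log2 fold change was 0.50 (95% confidence interval −0.11 to 1.10, unadjusted p = 0.101, adjusted p = 0.786 from edgeR). IDH2 KO male 2 carried much of it, since it was 0.19 without that library, and in males it went from 0.85 to 0.13.

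*Nr0b2* also had the largest difference between WT males and WT females among the counted genes. The male to female log2 fold change was −0.99 (95% confidence interval −1.82 to −0.17, unadjusted p = 0.0212, adjusted p = 0.612 from edgeR), with means of 17.0 ± 7.35 (SD, n = 3) and 33.8 ± 7.96 (SD, n = 4) CPM. The groups overlapped through WT male 1, at 24.9 CPM, and WT female 2, at 23.1 CPM, and did not overlap in RPM. The share of all genes separated between WT males and WT females was 10.7% in CPM and was not computed in RPM. Without WT male 1, the library with intestinal transcripts, the log2 fold change was −1.38 (adjusted p = 0.485), and without both that library and IDH2 KO female 3 the adjusted p was 0.0967. Of all genes tested, 0.748% were called between WT males and females, and the count among the 5 genes was 0. The other 4 had log2 fold changes of −0.28 to 0.30.

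**Figure D3:**
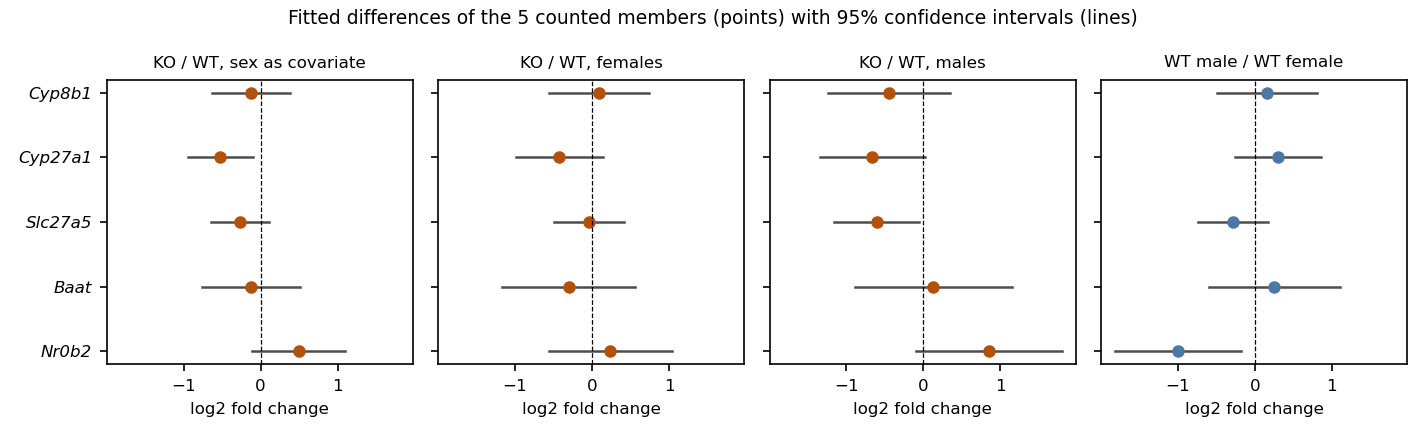
Log2 fold changes (points, x axis) of the 5 counted genes (y axis) with 95% confidence intervals (lines) for IDH2 KO against WT with sex as a covariate, in females and in males, and for WT males against WT females. The interval leaves out 0 for *Cyp27a1* with sex as a covariate, for *Slc27a5* in males and for *Nr0b2* between the sexes, and no value passed the adjustment over 7618 genes.

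The counted genes did not all lie on the same side of WT within a sex. In males, *Cyp8b1*, *Cyp27a1* and *Slc27a5* were lower in both IDH2 KO libraries than in all 3 WT libraries, which is 3 of 5 genes, and 11.9% of all genes tested were separated in this direction. Without TMM scaling it was 0 of 5 genes, against 3.44% of all genes, so the separation in males rested on the scaling. *Baat* and *Nr0b2* overlapped in males. In females none of the 5 was separated, against 6.48% of all genes in either direction. No gene of the 5 was called in females, where 0.184% of genes were, and the interaction of genotype and sex was called for 0% of all genes (0 of 7618 by edgeR, where 220 genes had an unadjusted p under 0.05, and DESeq2 called 10 genes, none of them among the 10 bile acid genes).

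**Figure D4:**
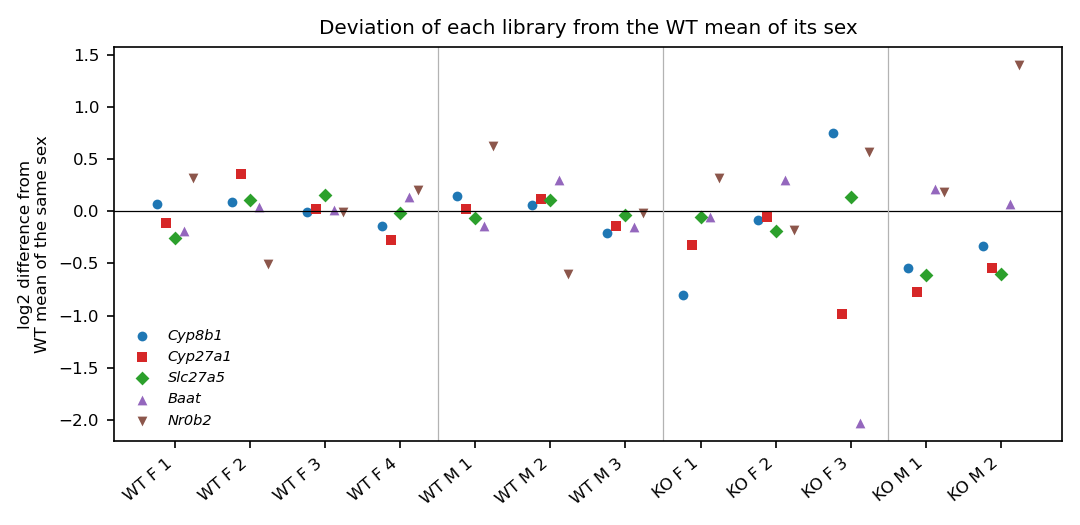
Log2 difference (y axis) of each library (x axis, F for female and M for male) from the WT mean of its sex for the 5 counted genes. Values are after TMM scaling, without which the male groups overlap in all 5 genes. Both IDH2 KO males lie below 0 in *Cyp8b1*, *Cyp27a1* and *Slc27a5*, and IDH2 KO female 3 lies at 0.75 in *Cyp8b1*, −0.98 in *Cyp27a1* and −2.03 in *Baat*.

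The ratio of reads between 2 genes of the same library does not depend on the scaling of libraries. *Cyp8b1* had 14.5 reads for each read of *Cyp27a1* in IDH2 KO female 3 and 3.11 to 4.91 in the other 11 libraries. *Slc27a5* had 74.1 reads for each read of *Baat* in IDH2 KO female 3. In the remaining libraries that ratio was 14.5 to 17.9 in WT females, 16.2 and 11.4 in IDH2 KO females 1 and 2, 9.93 to 12.3 in WT males and 6.40 and 7.13 in IDH2 KO males. The ligase was thus lower relative to the acyltransferase in both IDH2 KO males than in any WT male, and lower in WT males than in any WT female. How many other pairs of genes are ordered in this way was not computed, so the order only describes these libraries. Of single genes tested, 24.1% were separated by genotype in males and 10.7% between WT males and WT females, in either direction after TMM scaling.

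Further enzymes of the pathway, 14 in number, were taken from a list, and 10 of them were tested. None was called between the genotypes. Before adjustment, 2 had a p under 0.05 and were lower, against 3.24% of all genes tested. The median of the 10 log2 fold changes was −0.08, against −0.0045 over all genes. Of these 2, *Hsd3b7*, the oxidoreductase that acts right after the 7α-hydroxylases, averaged 12.4 CPM in WT (SD 6.75, n = 7) against 5.38 CPM in IDH2 KO mice (SD 2.06, n = 5). This is a log2 fold change of −1.19 (unadjusted p = 0.00669, adjusted p = 0.464 from edgeR), with overlap in both sexes in CPM and in males alone in RPM. It was −1.21 in males and −1.18 in females. WT male 2 was the highest library, at 25.8 CPM against 8.64 and 7.27 CPM in WT males 1 and 3. IDH2 KO female 3 was the lowest, at 2.29 CPM. Leaving out 1 library gave −1.38 to −0.90 with sex as a covariate. In RPM, 7.36% of all genes were separated in females in either direction.

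*Scp2*, which encodes sterol carrier protein 2 and the peroxisomal thiolase that shortens the side chain, was the other. Its counts were low and uneven. WT females held 27, 40, 27 and 10 reads and IDH2 KO females 8, 8 and 1, while WT males held 63, 788 and 84 and IDH2 KO males 16 and 52. In both sexes all IDH2 KO libraries were below all WT libraries, a separation that 0.879% of all genes showed in this direction (0.525% in RPM, in which *Scp2* was separated as well). The log2 fold change was −2.47 (adjusted p = 0.241 from edgeR) and −1.72 without WT male 2 (adjusted p = 0.436). WT males were higher than WT females in *Scp2* (log2 fold change 3.57, adjusted p = 0.0421), but without WT male 2 the value was 2.00 (adjusted p = 0.390).

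None of the 4 most abundant of these enzymes was called. *Slc27a2*, an acyl-CoA synthetase, had a log2 fold change of −0.24 (−0.47 to −0.086 when 1 library was left out), *Cyp2a12*, which rehydroxylates secondary bile acids in mice, 0.05, *Hsd17b4*, the peroxisomal bifunctional enzyme, −0.07, and *Akr1c6*, an aldo-keto reductase, 0.14 (0.045 to 0.23 when 1 library was left out, and adjusted p = 0.892 to 0.978 from edgeR). The values for *Cyp2a12* and *Hsd17b4* changed sign when 1 library was left out. The value of *Cyp2a12* was 0.41 in females and −0.51 in males, with an interaction of −0.92 (unadjusted p = 0.0363, adjusted p = 1.00 from edgeR). IDH2 KO female 3 was the highest library in *Cyp2a12*, at 1648 CPM, and the values within each sex are given only with it. *Acox2*, the peroxisomal oxidase of bile acid intermediates, was listed at 0 in all libraries.

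Of 13 further transporters, 8 were tested and none was called. Their median log2 fold change was −0.40, against −0.0045 over all genes. At an unadjusted p under 0.05, 1 of the 8, *Slco1a1*, was lower with sex as a covariate, against 3.24% of all genes. *Slco1a1*, an organic anion carrier of the sinusoidal membrane, had the largest difference among the 4 most abundant. WT females held 2369, 7943, 1604 and 1998 reads and IDH2 KO females 53, 841 and 72, without overlap. After TMM scaling 3.47% of all genes tested were separated in females in this direction. WT males held 6527, 13561 and 8530 reads and IDH2 KO males 4686 and 8508, with overlap in CPM. The log2 fold change was −2.95 in females (unadjusted p = 0.00378, adjusted p = 0.480 from edgeR), −0.62 in males and −1.92 with sex as a covariate (adjusted p = 0.582). In females it was called when IDH2 KO female 2, the highest of the 3, was left out (log2 fold change −5.29, adjusted p = 0.00593), by limma on log2 RPM plus 1 (−3.82, adjusted p = 0.0180) or plus 0.5 (−3.95, adjusted p = 0.0249), and without the low-count filter (adjusted p = 2.46e-13). The other 18 of 22 alternatives did not call it, and DESeq2 gave it no p value. Without the filter the log2 fold change was −2.97, close to the main value, so that the p value alone moved. Without IDH2 KO female 3 it was −2.50 (unadjusted p = 0.0511, adjusted p = 0.763). The difference between the sexes in the genotype effect had an unadjusted p of 0.0697 and an adjusted p of 1.00 from edgeR. WT males were higher than WT females in *Slco1a1* (log2 fold change 1.81, unadjusted p = 0.0322, adjusted p = 0.737 from edgeR), without overlap. Of all genes tested, 10.7% were separated between WT males and WT females in either direction. The biliary sterol exporters *Abcg5* and *Abcg8* had log2 fold changes of 0.04 and −0.10, each changing sign in some of the alternatives, and *Abcc2*, the canalicular organic anion pump, one of −0.56 (adjusted p = 0.863), or −0.77 to −0.26 when 1 library was left out. *Slc10a2*, the bile acid uptake carrier of the ileum and of cholangiocytes, held 33, 105, 41 and 57 reads in WT females and 4, 17 and 0 in IDH2 KO females. These did not overlap either, in the direction that 3.47% of all genes showed. WT males held 37, 161 and 43 reads and IDH2 KO males 510 and 52, so that IDH2 KO male 1 held 510 of its 1060 reads. Its log2 fold change was −2.70 in females (unadjusted p = 0.0106, adjusted p = 0.689 from edgeR) and 1.72 in males, and the interaction was 4.42 (unadjusted p = 0.00377, adjusted p = 1.00). *Slco1b2* and *Slco1a4*, carriers of the same membrane as *Slco1a1*, were listed at 0, and *Slc51a*, an exporter of the intestine, had 190 of its 191 reads in WT male 1.

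**Figure D5:**
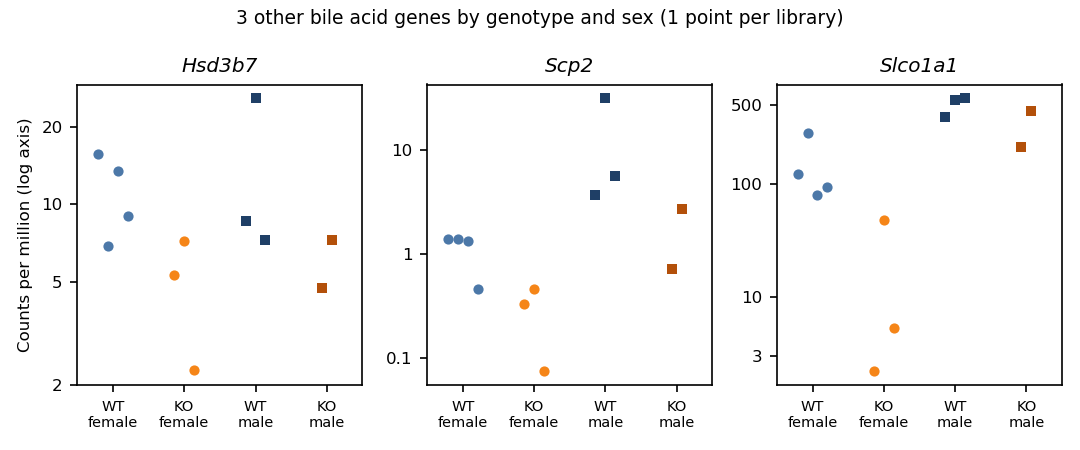
Level in CPM (log y axes) of *Hsd3b7*, *Scp2* and *Slco1a1* by genotype and sex (x axes), with 1 point per library. In *Slco1a1* the 3 IDH2 KO females lie at 2.21 to 47.9 CPM, below the WT females at 79.0 to 279 CPM. Of all genes tested, 3.47% were separated in females in this direction. In *Scp2* WT male 2 lies at 31.7 CPM, above all other libraries.

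Among 12 regulators, 6 were tested and none was called. At an unadjusted p under 0.05, 1 was higher (*Nr1i3*) and 1 lower (*Rxra*), against 3.48% and 3.24% of all genes tested. *Rxra*, the partner receptor of FXR, had only 99 reads in all and a fitted log2 difference of −1.88 (adjusted p = 0.488 from edgeR). Over the alternatives the difference of *Rxra* ranged from −2.21 to −0.41. *Nr1i3*, which encodes the constitutive androstane receptor, had a log2 difference of 1.00 (adjusted p = 0.654), or 0.46 without IDH2 KO female 3. *Nr5a2* (LRH-1) had 0.36, *Nr1i2* (the pregnane X receptor) 0.18 and *Klb*, the coreceptor of the intestinal signal that represses *Cyp7a1*, −0.55, each with an adjusted p of at least 0.834. Leaving out 1 library gave 0.024 to 0.64 for *Nr5a2* and −0.99 to −0.28 for *Klb*. *Hnf4a* had 1 read in all libraries. *Vdr* had 424 of its 425 reads in WT male 1.

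Since *Cyp7a1* is known to follow the hour of the day, 14 clock genes were read beside it, of which 5 were tested and none was called. *Nr1d1*, which encodes the clock repressor REV-ERBα, averaged 127 CPM in WT (SD 27.1, n = 7) against 165 CPM in IDH2 KO mice (SD 78.8, n = 5). The log2 fold changes were 0.31 for *Nr1d1*, −0.27 for *Nr1d2*, −0.33 for *Dbp* and 0.33 for *Arntl*, with adjusted p of 0.875 or more from edgeR. Leaving out 1 library gave 0.080 to 0.56 for *Nr1d1* and 0.15 to 0.53 for *Arntl*, and changed the sign for *Nr1d2* and *Dbp*. Of the clock genes, 7 were listed at 0. Within the groups *Dbp* and *Nr1d2* were among the most uneven genes, with a residual SD of the log2 level of 1.62 and 1.41 in CPM. Larger ones were found in 0.053% and 0.289% of the genes tested. For *Nr1d2*, IDH2 KO female 3 lay far below its group, at 0.813 CPM (11 reads) against 26.3 and 31.2 CPM in IDH2 KO females 1 and 2. The residual SD without that library was not computed. For *Nr1d1* and *Arntl* the residual SD was 0.58 and 0.55. *Dbp* ranged from 0.357 CPM in IDH2 KO male 1 to 27.9 CPM in WT male 3. Whether the mice were alike in clock phase was not tested.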

How the data were processed

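Liver RNA of 7 WT and 5 IDH2 KO mice was sequenced as 50 bp single-end reads, and genotype and sex in the labels gave the 4 groups. Per gene, the authors deposited unnormalized read counts in whole numbers and a filtered table of 8730 rows of the same counts. FastQC and GRCm38.p5 appear in the submitters' processing notes. What program aligned the reads, what program counted them, with which strand setting, and how reads with several matches were treated was not given in the sources used here. In all, the 12 libraries held 15323300 to 25019649 counted reads, and no 2 libraries of the same group agreed within sampling noise.

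Counts were tested with edgeR 4.0.16 in R 4.3.3 by the robust quasi-likelihood test, TMM scaling and filterByExpr (minimum count 10, minimum total 15), which kept 7618 genes. Sex was a covariate of the genotype, and a model with 4 group means gave the genotype contrast in each sex, the contrast of WT males with WT females, and the interaction. P values were adjusted over all 7618 genes by Benjamini-Hochberg, with a threshold of 0.05. Levels are CPM after TMM scaling, and per kilobase they use the union of GENCODE M21 exons (GRCm38). A count of 0 was taken to allow 3 reads, and intervals are at 95%. Each library was a separate mouse. The code was tested on simulated counts.

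The 10 genes, the lists and the tests were chosen with earlier results of these data known. Besides the 10, the text names the 4 genes of highest mean CPM of each list, those called in any contrast, and *Hsd3b7* and *Rxra*. It also names, for *Cyp8b1*, the 3 genes nearest in profile. *Hsd3b7* and *Rxra* were included because the paper lists both as lower in IDH2 KO mice. That list came from these same libraries, so the values of both genes here are not independent of it. *Cyp7a1* and *Cyp7b1* were not tested and were given no nearest genes. Genes listed at 0 or held mainly by 1 library, *Slc10a2*, and the markers *Alb*, *Cps1*, *Vil1*, *Lct*, *Fabp2*, *Epcam*, *Krt19*, *Krt7*, *Sox9*, *Cftr* and *Spp1*, were named after their values were seen. Alternatives included size factors by RLE or none, totals that leave out the 10 most abundant genes, the deposited filtered genes or no filter at all, DESeq2 1.42.0, limma 3.58.1 on log2 RPM plus 1 or 0.5, a replicate block, no sex term, an unequal-variance test on log2 RPM, and each library left out. The fit without both WT male 1 and IDH2 KO female 3, and the overlap of groups in RPM, were added after seeing the data.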

Additional observations from a re-analysis of the deposited data

Results flagged for a closer look

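*Baat* was at 112 CPM in WT male 2, which lay farther from the other 6 WT libraries, at 67.3 to 84.3 CPM, than the spread of the 7 libraries allows by Dixon's test. It was the single such value among 15 groups of libraries tested, and chance alone gives about 1 in 20. The genotype difference of *Baat* in males was 0.13 on the log2 scale with all libraries.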

How the results depend on the processing

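Of the 25 differences of the 5 counted genes, 5 contrasts each, none passed the threshold under any of 555 alternative values, 534 kept their direction and 21 changed it. For the genotype with sex as a covariate, *Cyp27a1* stayed between −0.65 and −0.40, *Slc27a5* between −0.35 and −0.20 and *Nr0b2* between 0.19 and 0.62. *Baat* turned to 0.14 without IDH2 KO female 3 and to 0.095 without that library and WT male 1 together, and *Cyp8b1* to 0.0076 without IDH2 KO female 1. The causes of these changes were not tested. 

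In females, *Cyp8b1* turned to −0.13 without scaling, −0.22 with limma after adding 1 or 0.5, −0.099 with the replicate block, −0.39 without IDH2 KO female 3 and −0.41 without both libraries. *Baat* turned to 0.14 and 0.13 under those last 2 settings, and *Slc27a5* to 0.0062 without WT female 3 and 0.019 without IDH2 KO female 2. The interaction turned to 0.035 with limma after adding 1 or 0.5 and 0.033 without both libraries for *Cyp8b1*, to 0.17 without scaling and 0.22 with both limma fits for *Cyp27a1*, to −0.076 without both libraries for *Baat* and to −0.086 without IDH2 KO male 2 for *Nr0b2*. Over the fits that leave out 1 library, these reversed differences ranged from −0.41 to 0.0076 for *Cyp8b1* with sex as a covariate, −0.39 to 0.38 in females and −0.83 to −0.038 for the interaction. They ranged from −0.30 to 0.14, −0.74 to 0.14 and 0.0016 to 0.88 for *Baat* in the same order, from −0.12 to 0.019 for *Slc27a5* in females and from −0.086 to 1.11 for the interaction of *Nr0b2* (1.17 without both libraries). Without scaling the median of all genes was −0.19 in females, 0.20 in males, 0.12 between the sexes and 0.37 for the interaction, and the count of the 5 genes lower in both IDH2 KO males than in all WT males went from 3 to 0.

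Among the other genes, *Cyp2a12* turned to −0.052 without WT female 2, −0.12 without IDH2 KO female 3 and −0.072 without both libraries, and *Hsd17b4* to 0.034 without IDH2 KO male 1. *Abcg5* turned to −0.062, −0.064 and −0.064 with limma after adding 1 or 0.5 and with the unequal-variance test, to −0.075 with the replicate block, and to −0.13, −0.0096 and −0.067 when IDH2 KO female 1, WT female 3 or IDH2 KO female 2 was left out. *Abcg8* turned to 0.0043 with the replicate block and to 0.015, 0.023 and 0.038 without WT female 2, WT male 2 or IDH2 KO male 1. *Nr1i2* turned to −0.0060 without IDH2 KO female 3 and −0.11 without both libraries, *Nr1d2* to 0.016 without IDH2 KO female 3, and *Dbp* to 0.28, 0.13 and 0.23 without WT female 2, WT male 3 or IDH2 KO male 1. Leaving out 1 library gave −0.12 to 0.18 for *Cyp2a12*, −0.16 to 0.034 for *Hsd17b4*, −0.13 to 0.24 for *Abcg5* (0.25 without both libraries), −0.26 to 0.038 for *Abcg8* (−0.29 without both), −0.0060 to 0.29 for *Nr1i2*, −0.60 to 0.016 for *Nr1d2* and −0.68 to 0.28 for *Dbp*. *Hsd3b7* (adjusted p = 0.0187), *Slco1a1* (7.63e-10) and *Scp2* (2.94e-06) were called without the filter in edgeR, and *Scp2* also by DESeq2 (0.00641). Without the filter the adjusted p of *Idh2* fell as well, to 2.83e-94 in edgeR, at a log2 fold change of −9.13. The call of *Scp2* between WT males and females was lost with both limma fits (adjusted p = 0.123) and without 9 of the 12 libraries in turn.

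Of all genes, 13 were called higher and 16 lower with sex as a covariate, 7 and 7 in females, 5 and 3 in males, 26 and 31 between the sexes, and 0 and 0 for the interaction. Without the filter these were 62 and 143, 42 and 42, 38 and 113, 164 and 87, and 16 and 32. DESeq2 called 30 and 33, 22 and 28, 19 and 25, 48 and 72, and 7 and 3. With limma after adding 1 there were 7 higher with sex as a covariate, 13 and 7 in males, and 1 and 1 for the interaction, and after adding 0.5 there were 7 higher, and 9 and 6 in males. The unequal-variance test called 0 and 1, and no scaling gave 1 higher for the interaction. Without both libraries there were 15 and 19 in males, 46 and 48 between the sexes and 1 higher for the interaction. Leaving out 1 library gave 7 to 18 higher and 12 to 18 lower with sex as a covariate, 3 to 9 and 5 to 9 in females, 0 to 15 and 1 to 11 in males, 14 to 53 and 17 to 66 between the sexes, and 0 to 1 and 0 to 1 for the interaction. Without IDH2 KO female 3 the counts were 15 and 11 in males and 53 and 66 between the sexes.

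Same-numbered libraries did not deviate together (correlations of −0.18 to 0.083), so the numbers were not taken to pair the mice. With the replicate block there were 3 and 7 calls with sex as a covariate, 3 and 3 in females, and 0 and 1 in males, and no call among the 5 counted genes. With 2 IDH2 KO males, leaving out 1 left a single library whose spread was assumed to be that of the other groups. *Cyp7a1*, *Cyp7b1*, *Slc10a1*, *Abcb11* and *Nr1h4* were not tested in any setting with the filter in place.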
